A study of Musca domestica with 16 samples.

Results

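Heads of male house flies, Musca domestica, were compared with heads of female house flies in 2 strains. Of the 16 libraries of the study, 8 came from heads. In strain CS, whose males are IIIM males with the male determiner on chromosome 3, there were 3 libraries of male heads and 1 of female heads. In strain CSaY, whose males are YM males with the determiner on the Y chromosome, there were also 3 libraries of male heads and 1 of female heads. All flies were unmated adults 4 to 6 days old and were kept at 25 °C. The authors' deposited table holds 1 FPKM value (sequenced fragments per kilobase of transcript, scaled by the mapped fragments of the library) for each strain and sex, so each male value summarises 3 libraries and each female value is 1 library. The single male libraries were not analysed one by one. No standard deviation can therefore be given, and the only test is the q value of the authors' deposited table, which sets 6 male against 2 female libraries. Nothing in the labels says whether the 3 libraries of a male group came from separate flies or cultures. A whole head holds nervous tissue, eyes, muscle, glands and fat body, and in such bulk RNA a higher level per cell and more cells of a type cannot be told apart.

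In insects the fat body, a tissue with roles like those of liver and adipose tissue, lies partly in the head and makes secreted proteins of the haemolymph. In females of higher flies it makes yolk proteins, which the ovary takes up into the growing egg. Much of what is known to differ between male and female fly heads in Drosophila melanogaster lies in fat body transcripts, while the sex-determination cascade ends in the transcription factors doublesex and fruitless, made in sex-specific forms by splicing. FPKM per gene does not show such splicing.

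Male minus female differences were computed on log2(FPKM + 1) within each strain and centred on their median over the 5060 of 14631 genes with at least 10 FPKM in all 4 head values. LOC101892806, with a lowest value of 10.0021 FPKM, was just inside this limit, and LOC101901733, at 9.9987 FPKM, was just outside it. Before centring, male values lay above female values by a median factor of 1.29 in CS and 1.29 in CSaY. This shift is of like size in both strains, and every fold and log2 difference below is relative to it. A gene was called when the authors' q lay below 0.05 and both strains differed in the same direction after centring.

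Most genes differed little between male and female heads. Of the 5060 genes of the centring set, 3295 (65.1%) lay within 1.5-fold in both strains. The difference had the same sign in both strains in 3390 genes (67.0%), 1695 of them higher in females and 1695 higher in males, and opposite signs in 1670. Across these genes the CS and CSaY differences had a Pearson r of 0.62 and a Spearman rho of 0.50, given as a description, since genes are not independent and no library is shared. Differences towards females reached further than those towards males. In CS 5% of the genes lay below -1.24 and 5% above 0.74 on the log2 scale, and in CSaY these limits were -1.67 and 0.69.

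The authors' deposited table tested 9679 genes in heads and gave q below 0.05 for 1292 (13.3% of those tested). Both strains had the same direction in 1211 of them, which is 12.5% of the tested genes. Of these, 1035 (10.7% of the tested genes) were higher in female heads and 176 (1.82%) were higher in male heads. The remaining 81 genes with q below 0.05 differed in direction between the strains and were not called. The median fold of the called genes was 2.39 for those higher in females and 2.09 for those higher in males. After centring, both female values lay above both male values in 1007 of the 1035 genes, and both male values lay above both female values in 173 of the 176, which the call rule largely sets. The difference was larger in CSaY than in CS in 68.6% of the genes called higher in females and in 27.8% of those called higher in males. The same shares over all tested genes are not given here. In the centring set, too, differences towards females reached further in CSaY than in CS, and those towards males slightly less far.

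**Figure D1:**
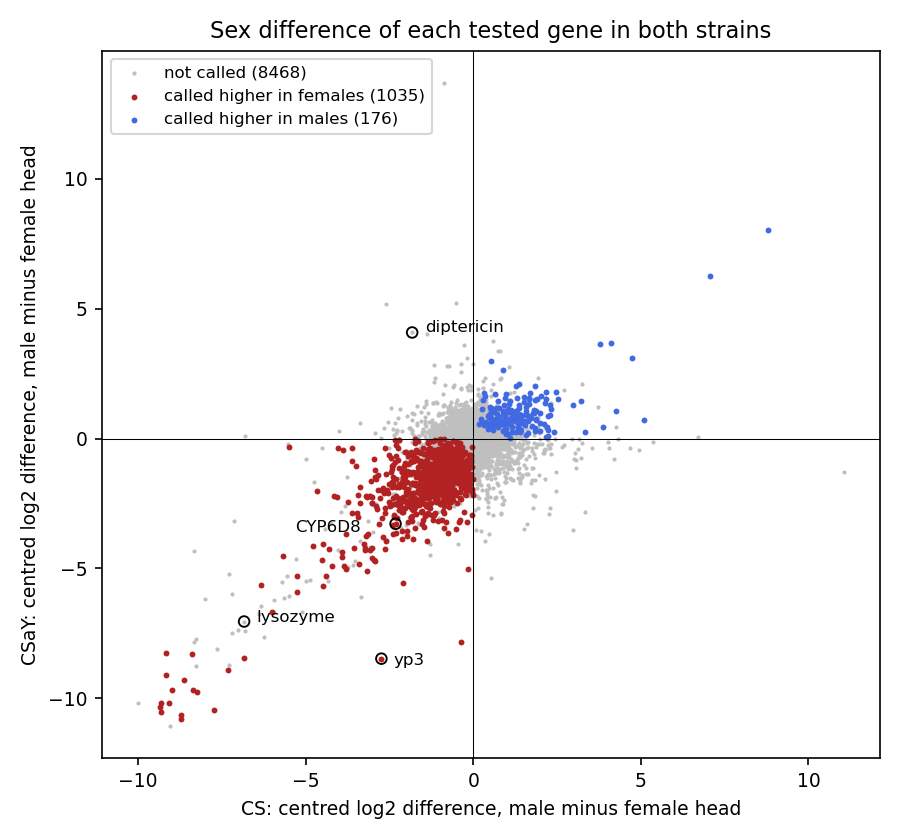
Centred log2 difference, male minus female head, of each gene the authors tested, in strain CS (x axis) and strain CSaY (y axis). Each point is 1 gene. Red points are the 1035 genes called higher in females, blue points the 176 called higher in males, and 4 named genes are circled. Many more red than blue points lie far from 0, and diptericin lies on opposite sides of 0 in the 2 strains.

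A second rule used size alone, with no test. It counted genes at least 2-fold different in the same direction in both strains, with at least 10 FPKM in both values of the higher sex. Of 5927 genes with such levels in 1 sex, 451 (7.61%) met it. Female heads held the higher level in 404 (6.82%) and male heads in 47 (0.793%). Without centring the counts were 241 and 131, so the split between the sexes by this rule depends on the scale. The authors' deposited table gave q below 0.05 for 364 of the 404 genes and for 41 of the 46 tested among the 47. At each larger size limit, too, more genes were higher in females. At 4-fold or more the counts were 127 for females and 6 for males, at 16-fold 58 and 2, at 64-fold 31 and 2, and at 256-fold 16 and 1. The gene beyond 256-fold in males, LOC101889469, was listed at 0 in females, so its size is that of FPKM + 1 only. The deposited values that pool both strains had the same direction as both strains in all 1211 called genes. They come from the same libraries as the strain values, so this outcome is largely set in advance. Of the 404 and 47 genes, 399 and 42 were also at least 2-fold different in those pooled values after centring.

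The genes at least 64-fold higher in females in both strains were 31, with 61.9 to 48293 FPKM in female heads. Together they made up 4.08% of the summed FPKM of CS female heads and 7.68% of that of CSaY female heads. In male heads they made up 0.00817% and 0.00835%. LOC101892639 was the most abundant. It stood at 45.2 FPKM in CS male and 41.0 FPKM in CSaY male heads, and at 22702 FPKM in CS female and 48293 FPKM in CSaY female heads. The female values lay far above the male ones in both strains, and the centred differences were -9.31 and -10.54 on the log2 scale (q = 0.000717 in the authors' deposited table). It spans 469 bases, and the deposited table places it in an ortholog group with FBgn0040958 and FBgn0040959 of Drosophila melanogaster. That group had 10 tested house fly genes, 7 of them among the 31. Of the 10, 5 were called higher in females, beside 10.7% of all tested genes. LOC101890559, of the same group, stood at 0 and 0.974 FPKM in CS and CSaY male heads and at 799 and 1754 FPKM in CS and CSaY female heads. The authors' deposited table gave it q = 0.356, so it was not called despite the size of the difference.

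Of the 31 genes 4 lie on scaffold NW_004765247, between bases 134007 and 182745 in the coordinates of the deposited table (no source used here names the assembly). They were the only genes the authors tested in this stretch. The table places the scaffold on chromosome 2. LOC101900269 stood at 8.16 and 8.95 FPKM in CS and CSaY male heads, against 4602 and 10034 FPKM in CS and CSaY female heads. Its neighbour LOC101900093 stood at 8.32 and 9.28 FPKM in males and at 3913 and 9333 FPKM in females. The other two, LOC101899750 and LOC101899923, share an ortholog group and stood at 2977 and 6450.4 FPKM, and at 1675 and 3687 FPKM, in CS and CSaY female heads, with no male value above 8.10 FPKM. All 4 genes of this cluster stood higher in CSaY than in CS female heads, and all 4 were called higher in females (q between 0.000717 and 0.00991 in the authors' deposited table). A second cluster, of 3 genes, lies on scaffold NW_004769239 between bases 13420 and 44280, on no assigned chromosome. LOC101888850, the most abundant of these, stood at 1.83 and 1.51 FPKM in male and 1123 and 1598 FPKM in female heads of CS and CSaY. No Drosophila melanogaster gene is listed for any of the 3. LOC101891419, on chromosome 3, stood at 4.09 and 4.05 FPKM in male and 2523 and 4502 FPKM in female heads (q = 0.000717 in the authors' deposited table). It shares its locus with LOC101891244, also among the 31, and no source used here says how reads were divided between them.

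As a set the 31 genes stood apart in span, listed orthologs and ovary level, which the size rule did not use. The genes are not independent, since 7 are of 1 ortholog group and several lie in clusters. They were short, with a median span of 849 bases against 4443 bases over all tested genes, and 17 of them (54.8%) spanned less than 1000 bases, against 11.8% of tested genes. No Drosophila melanogaster gene was listed for 7 of them (22.6%), against 12.2% of tested genes. The 31 were abundant in female heads, and spans and listed orthologs were not compared with those of genes of like abundance. They belonged to 21 ortholog groups and lay on 22 scaffolds. In ovaries 28 of the 31 stood below 1 FPKM, against 18.3% of the 5927 genes with at least 10 FPKM in both head values of 1 sex. Of the 31, 19 were listed at 0 in ovaries, and the highest value was 20.3 FPKM. In testes their median was 1.48 FPKM and the highest 159 FPKM. These transcripts were thus abundant in female heads and scarce in ovaries. The CSaY female library was the higher of the 2 female libraries in 25 of the 31, with a median ratio of 1.70. In the centring set CSaY was the higher female library in 47.6% of genes. The size rule used these female values, so this comparison is a description only.

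Of the 31 genes 16 were called and 15 were not, with q from 0.0549 to 0.691 in the authors' deposited table. The uncalled genes were less abundant, with a median of 166 FPKM in the lower female value, against 1006 FPKM for the called genes. A q above 0.05 beside such differences does not show that the sexes were alike.

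That the male level of these genes was a small share of the female level is set by the size rule. Between the quartiles this share was of like size, and over all 31 genes it ran wider. Relative to the sum of both female values, the CS male value had a median of 0.0637% (quartiles 0.0558% and 0.0904%). The CSaY male value had a median of 0.0611% (quartiles 0.0456% and 0.0774%). Among the 16 called genes this share ran from 0.0558% to 0.137% in CS and from 0.0365% to 0.118% in CSaY. Over all 31 genes it ran from a listed 0 to 0.213% in CS and from 0.00914% to 0.481% in CSaY. In the 28 genes above 0 in both male groups, the ratio of the CSaY to the CS male value ran from 0.178 to 3.87, and that of the female values from 0.534 to 6.60. In the called genes the male ratio ran from 0.459 to 1.12, and the female ratio had the same range as in the 28. LOC101890311 had the highest female ratio of these. It stood at 553 FPKM in CS and 3653 FPKM in CSaY female heads, while both male groups stood at 2.35 and 2.33 FPKM. Whether these low male values are transcripts of male heads was not tested, and the folds of the 31 genes depend on them.

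**Figure D2:**
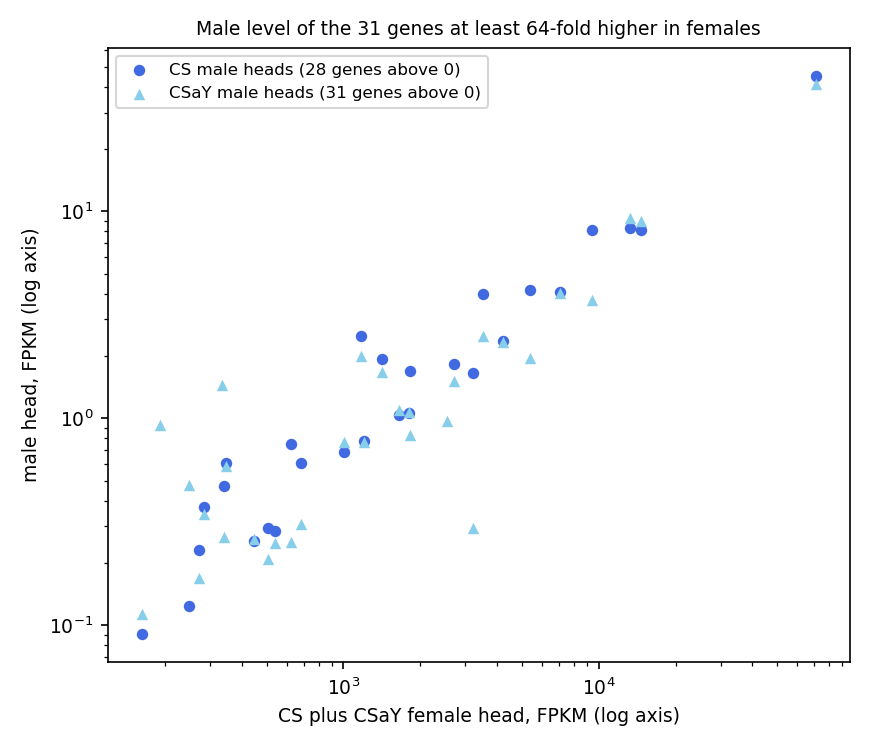
FPKM in male heads (y axis, log scale) against the summed FPKM of CS and CSaY female heads (x axis, log scale) for the 31 genes at least 64-fold higher in females. Circles are CS males and triangles CSaY males, each a value of 3 pooled libraries, and values listed at 0 are left out. The medians are 0.0637% (CS) and 0.0611% (CSaY) of the female sum, and low male values are set by the size rule.

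Transcripts of the yolk protein family were among the most female of the table. Yp3, which encodes a yolk protein, stood at 66.0 FPKM in CS male and 3.82 FPKM in CSaY male heads, against 347 FPKM in CS female and 1328 FPKM in CSaY female heads. Both female values lay above both male values, and the CS male value lay far above the CSaY one. The centred difference was -2.74 in CS and -8.48 in CSaY on the log2 scale (q = 0.000717 in the authors' deposited table). LOC101889640, of the same ortholog group, showed no such strain difference. It stood at 1.05 and 1.08 FPKM in CS and CSaY male heads and at 913 and 890.1 FPKM in CS and CSaY female heads (q = 0.000717 in the authors' deposited table). Of the 5 tested genes of the group 3 were called higher in females and 0 higher in males, beside 10.7% and 1.82% of all tested genes. The median log2 difference of the 5 was -5.61, against -0.06 over all tested genes. Of the other two, LOC101890561 stood at 0.0868 and 0 FPKM in male and 42.7 and 34.5 FPKM in female heads and was not called (q = 0.500 in the authors' deposited table). Yp3 and LOC101889640 lie on scaffold NW_004765161 of chromosome 3, at bases 24654 to 26160 and 1694 to 2976. In ovaries yp3 stood at 67.7 FPKM and LOC101889640 at 2.2 FPKM. Levels of bcd, a gene whose transcript Drosophila melanogaster mothers place in the egg, were listed at 0 in all 4 head values.

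A further pair of abundant transcripts higher in female heads belongs to the ortholog group of FBgn0002565. LOC101892715 stood at 141 and 178 FPKM in CS and CSaY male heads and at 2489 and 3522 FPKM in CS and CSaY female heads. LOC101892890 stood at 89.7 and 138 FPKM in males and 1059 and 2222 FPKM in females. Both were called (q = 0.000717 for each in the authors' deposited table), but they share a locus, so the division of reads between them is uncertain. The third tested gene of the group, LOC101892543, did not exceed 1.3 FPKM in any head value and was not called. This group was picked with its values in view.

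**Figure D3:**
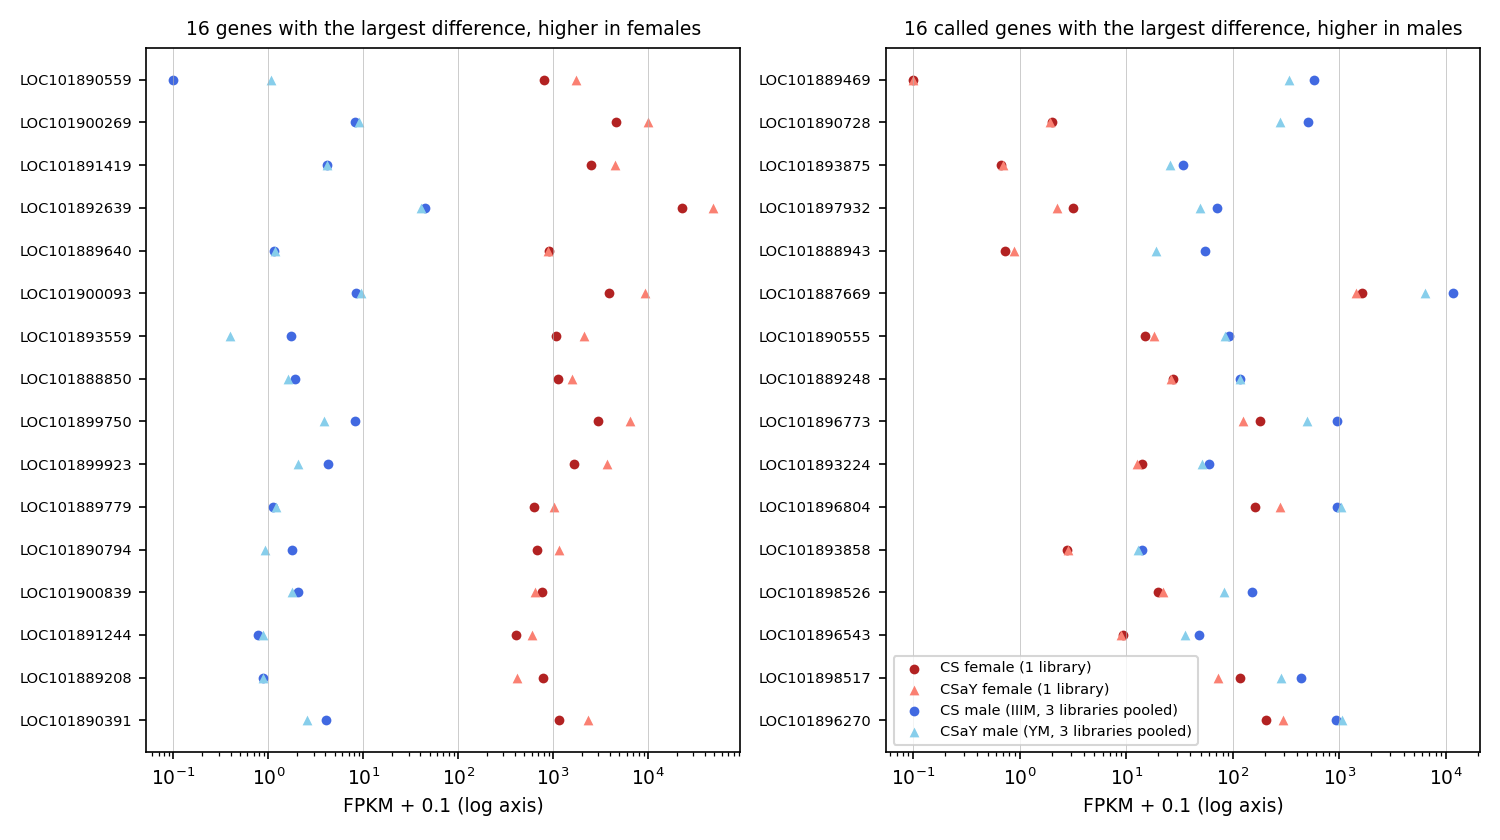
FPKM + 0.1 on a log axis in each of the 4 head values, for the 16 genes with the largest difference towards females (left) and the 16 called genes with the largest difference towards males (right), ranked by the smaller of the 2 strain differences. Circles are CS and triangles CSaY, red shades female and blue shades male. The sexes stand apart in every gene shown, for most genes by far more on the left than on the right.

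Cytochrome P450 genes encode oxidases of xenobiotics, hormones and lipids and are known in house flies for insecticide resistance. Those with a name, and the members of their ortholog groups, were higher in female heads where they were called. P450 genes outside these groups were not identified. Of the 7 tested P450 genes with a name 5 were called higher in females and 0 higher in males, beside 10.7% and 1.82% of all tested genes. The median log2 difference of the 7 was -1.31. CYP6D8 stood at 596 and 418 FPKM in CS and CSaY male heads and at 2307 and 3155 FPKM in CS and CSaY female heads, a centred log2 difference of -2.32 in CS and -3.28 in CSaY. CYP6G4, the most abundant P450 gene with a name, stood at 1687 and 1567 FPKM in males and 3893 and 2321 FPKM in females. In both genes each female value lay above both male values. CYP6A24 stood at 281 and 270.3 FPKM in males and 799 and 378 FPKM in females. CYP6D3 stood at 31.2 and 24.1 FPKM in males and 94.6 and 29.9 FPKM in females, so its CSaY female value lay below the CS male value before centring. CYP6A1 was also called, at no more than 5.59 FPKM. For CYP6D8, CYP6G4, CYP6A24 and CYP6D3 q was 0.000717, the lowest value of the head comparison in the authors' deposited table. For CYP6A1 it was 0.00253. The 2 tested genes with a name that were not called were CYP12A2, at 12.7 and 11.7 FPKM in male and 11.3 and 9.65 FPKM in female heads, and CYP6A40.

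The ortholog groups that hold these P450 genes had 41 tested members, of which 17 were called higher in females, 0 higher in males and 24 in neither direction, beside 10.7% and 1.82% of all tested genes called higher in females and in males. The called members ranged from -2.80 to -0.45 in the mean log2 difference of the strains. Of all 41, 27 were higher in females in both strains and 5 were lower. LOC101889524, in the group of CYP12A2, had the largest difference after CYP6D8. It stood at 2.79 and 2.82 FPKM in males and 29.4 and 9.72 FPKM in females (q = 0.000717 in the authors' deposited table). Of the redox partners of P450 enzymes, Cyt-b5, an electron donor, stood at 682 and 530.5 FPKM in male and 712 and 722 FPKM in female heads and was called (q = 0.00196 in the authors' deposited table). CPR, the P450 reductase, stood at 292 and 241 FPKM in males and 297 and 255 FPKM in females and was not called (q = 0.223 in the authors' deposited table). Both of these genes were picked with their values in view.

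Glutathione S-transferases, which conjugate glutathione to reactive compounds, showed calls in the same direction among genes with a name and their ortholog groups. GST-6A stood at 523 and 611 FPKM in CS and CSaY male heads and at 1064 and 822 FPKM in CS and CSaY female heads (q = 0.000717 in the authors' deposited table). Gst-2 stood at 45.5 and 55.0 FPKM in males and 46.2 and 97.6 FPKM in females, with little difference before centring in CS (q = 0.00253 in the authors' deposited table). The gene named GST was not called, with q = 0.227 in the authors' deposited table, at 2572 and 1463 FPKM in males and 994 and 872 FPKM in females. In the ortholog groups of the 3 genes 6 of 12 tested members were called higher in females and 0 higher in males, beside 10.7% and 1.82% of all tested genes. In the group of MdaE7, an esterase known from organophosphate resistance, 3 of 5 tested members were called higher in females and 0 higher in males (10.7% and 1.82% over all tested genes), and MdaE7 itself was not called. LOC101900490, the largest of these, stood at 9.79 and 6.42 FPKM in males and 27.8 and 31.2 FPKM in females.

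**Figure D4:**
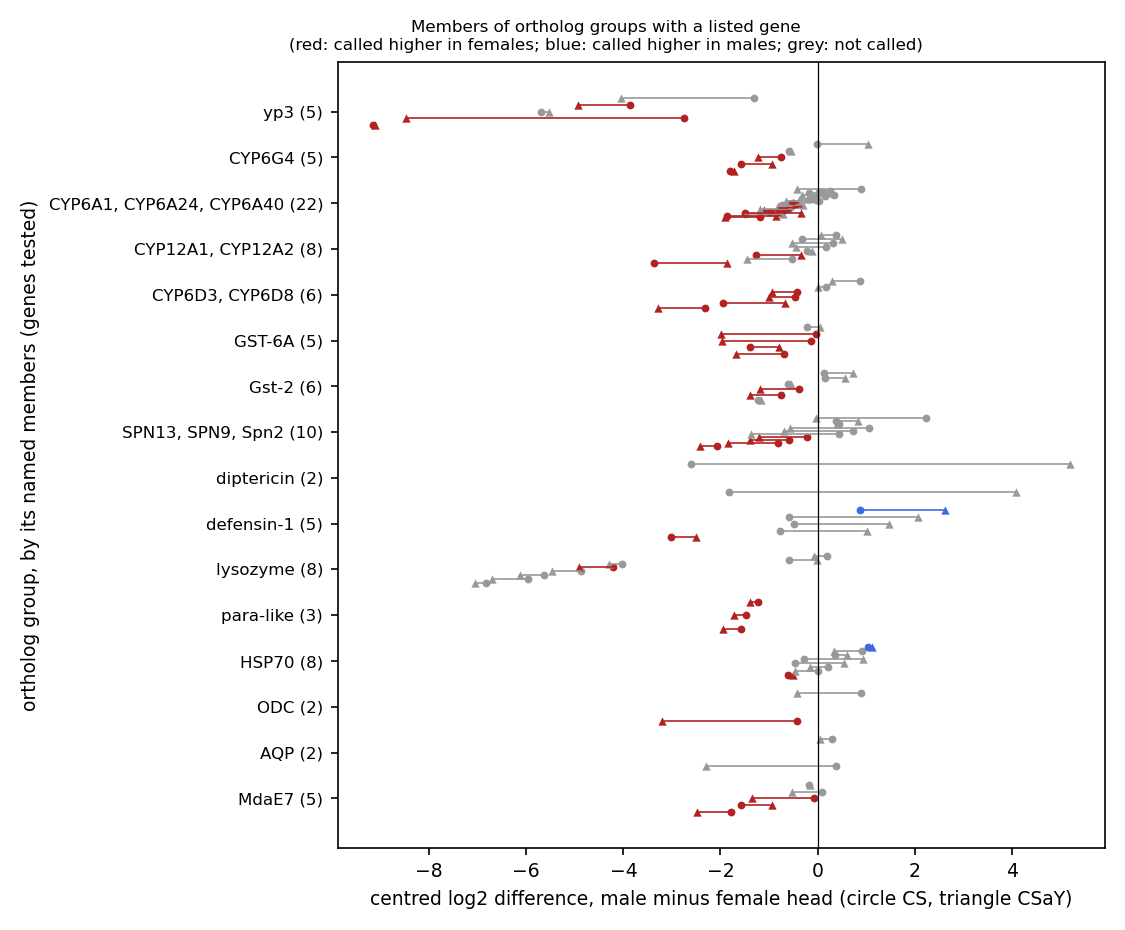
Centred log2 difference, male minus female head (x axis), of every tested member of the ortholog groups that hold a listed gene and have at least 2 tested members (y axis, by the named members). A circle is the CS and a triangle the CSaY value of a gene, joined by a line. Red genes were called higher in females, blue higher in males, grey were not called. All members of the para-like group are red, and both members of the diptericin group cross 0.

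Sodium channel transcripts were higher in female heads in all 3 tested members of their group. Para-like, which encodes a voltage-gated sodium channel of neurons and the target of pyrethroid insecticides, stood at 20.9 and 18.2 FPKM in CS and CSaY male heads and at 49.6 and 56.2 FPKM in CS and CSaY female heads. The centred log2 difference was -1.57 in CS and -1.95 in CSaY. LOC101899438 stood at 20.7 and 23.5 FPKM in males and 38.8 and 49.0 FPKM in females, and LOC101899093 at 4.74 and 5.08 FPKM in males and 11.4 and 14.4 FPKM in females. In all 3 genes both female values lay above both male values, and q was 0.000717 for each in the authors' deposited table. All 3 were thus called higher in females, beside 10.7% of all tested genes. Whether the 3 gene models are parts of 1 gene was not tested. Among other neuronal genes with a name, nAChRbeta3, an acetylcholine receptor subunit, stood at 44.6 and 32.0 FPKM in males and 21.2 and 24.1 FPKM in females and was not called. The neuropeptide gene pdf, at 63.2 and 87.3 FPKM in males and 68.5 and 40.9 FPKM in females, was not called either.

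Other named genes called higher in female heads were ODC, TPS and TCTP. ODC, ornithine decarboxylase, which makes the polyamine putrescine, stood at 45.6 and 20.5 FPKM in CS and CSaY male heads and at 47.7 and 152 FPKM in CS and CSaY female heads. TPS stood at 185 and 157 FPKM in males and 219 and 494 FPKM in females. In both genes most of the difference lay in the CSaY strain, with centred log2 differences of -0.43 in CS and -3.20 in CSaY for ODC, and -0.60 and -2.01 for TPS. TCTP, a growth-associated protein, was more even, at 1412 and 1270.5 FPKM in males and 1981 and 2217 FPKM in females (q = 0.00306 in the authors' deposited table, and 0.000717 for ODC and TPS). Of the 51 tested genes with a name 13 were called higher in females and 0 higher in males, beside 10.7% and 1.82% of all tested genes, and the male share is too low for 0 calls among so few genes to stand apart from it. SPN13, a serpin, had q = 0.0495 in the authors' deposited table with a higher male level, but its strains did not agree, at 2.24 in CS and -0.04 in CSaY. Sxl, which sets sex in Drosophila melanogaster but not in the house fly, stood at 30.3 and 31.6 FPKM in males and 15.6 and 21.2 FPKM in females and was not called (q = 0.503 in the authors' deposited table). None of the 5 tested chaperonin and heat shock genes with a name was called, and their median log2 difference was 0.03.

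Immune genes differed in direction from gene to gene. Of the 8 tested genes of the ortholog group of lysozyme, a bacteria-lysing enzyme of insect gut, salivary gland and haemolymph, 6 were at least 16-fold higher in females in both strains. Of the 5927 genes with at least 10 FPKM in both head values of 1 sex, 58 were that much higher in females. Lysozyme itself stood at 0.124 and 0.478 FPKM in CS and CSaY male heads and at 98.7 and 150.1 FPKM in CS and CSaY female heads, with q = 0.601 in the authors' deposited table. LOC101892974 alone of the 8 was called, at 0 FPKM in both male values and 13.3 and 22.3 FPKM in the female ones. Over all tested genes 10.7% were called higher in females. Of the 6 genes 4 share a locus with other genes, so their separate levels are uncertain. In the group of defensin-1, an antimicrobial peptide, genes of 1 scaffold were called in opposite directions. LOC101888225 was higher in females, at 526 and 392 FPKM in males and 3313 and 1717 FPKM in females. LOC101887709 was higher in males, at 729 and 923 FPKM in males and 306 and 114 FPKM in females. Q was 0.000717 for each in the authors' deposited table. Defensin-1 itself was not called, with differences of -0.59 in CS and 2.06 in CSaY. None of the 4 serpin genes with a name was called with both strains agreeing, while 4 of 11 tested members of their ortholog groups were called higher in females and 0 higher in males, beside 10.7% and 1.82% of all tested genes. The largest of those 4 was LOC101896049, which shares its locus with another gene, at 19.1 and 14.8 FPKM in males and 64.7 and 64.4 FPKM in females.

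The genes higher in male heads were fewer and, with a few exceptions, less different. LOC101889469, a locus of 214 bases on chromosome 2 with no Drosophila melanogaster gene listed, stood at 572 FPKM in CS male and 339 FPKM in CSaY male heads and was listed at 0 in both female values. It lies at bases 238024 to 238237 of scaffold NW_004764662 and was also listed at 0 in ovaries and testes. Because a listed 0 may stand for an estimate that failed, no fold is given, and q was 0.000717 in the authors' deposited table. LOC101890728, also on chromosome 2, stood at 506 and 275 FPKM in males and 1.91 and 1.81 FPKM in females, a centred log2 difference of 7.07 in CS and 6.24 in CSaY. The deposited table lists FBgn0038076 for it and for 2 further tested genes. LOC101893162, one of these, was called at 34.7 and 11.8 FPKM in males and 4.55 and 3.55 FPKM in females. LOC101887770, the other, was not called, at 14.6 and 6.30 FPKM in males and 0.267 and 0.321 FPKM in females.

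LOC101893875 stood at 33.9 and 25.5 FPKM in CS and CSaY male heads and at 0.569 and 0.589 FPKM in CS and CSaY female heads (q = 0.00136 in the authors' deposited table). LOC101897932 stood at 71.3 and 49.5 FPKM in males and 3.08 and 2.13 FPKM in females. These male values lay more than 10-fold above the female ones in each strain. The most abundant gene called higher in males by at least 2-fold was LOC101887669, for which the table lists FBgn0011693. It stood at 11588 and 6425 FPKM in males and 1618 and 1425 FPKM in females (q = 0.000717 in the authors' deposited table). LOC101892434, listed with FBgn0022355, stood at 3850.2 and 3149.9 FPKM in males and 1012 and 1036 FPKM in females. LOC101890555, listed with FBgn0000337, stood at 91.2 and 83.9 FPKM in males and 15.0 and 18.1 FPKM in females. In these 3 genes both male values lay above both female values. All genes of this paragraph but LOC101893875 were picked with their values in view.

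Of the 47 genes at least 2-fold higher in males, 36 (76.6%) had a higher FPKM in CS than in CSaY males, against 61.0% of the centring set. The 404 genes at least 2-fold higher in females were alike in this, with 317 (78.5%). In ovaries 38 of the 47 (80.9%) stood below 1 FPKM, against 18.3% of the 5927 genes with such levels in heads and 181 of the 404. In testes 15 of the 47 stood below 1 FPKM. Of the 269 ortholog groups with at least 3 tested genes, 4 held 3 or more genes called higher in males. In 25 groups 3 or more genes were called higher in females. Over all tested genes 1.82% were called higher in males and 10.7% higher in females, so these counts of groups start from unlike shares. The group with the most male calls had 16 tested genes, of which 5 were called higher in males and 1 higher in females. In it LOC101901246 stood at 313 and 213 FPKM in males and 54.7 and 62.7 FPKM in females. In the group of FBgn0014454 3 of 4 tested genes were called higher in males, and here the strains differed widely. LOC101901821 stood at 56.3 FPKM in CS male but 2.35 FPKM in CSaY male heads, beside 0.313 and 0.584 FPKM in CS and CSaY female heads. The CSaY males thus lay much nearer to the females than the CS males did. These groups were picked with their values in view.

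In some genes the 2 strains differed between the sexes in opposite directions. Diptericin, an antimicrobial peptide gene induced through the Imd pathway in Drosophila melanogaster, stood at 298 FPKM in CS male and 48.1 FPKM in CSaY male heads, and at 819 FPKM in CS female and 1.23 FPKM in CSaY female heads. The CS female library was the highest of the 4 values and the CSaY female library the lowest, so the centred difference was -1.82 in CS and 4.09 in CSaY. The authors' deposited table gives q = 0.00563 for the pooled sexes, and the gene is not called here. LOC101896897, of the same ortholog group, lies at bases 128708 to 129072 of scaffold NW_004765871 on chromosome 3, and diptericin at bases 134121 to 134577. It stood at 463 and 160.2 FPKM in CS and CSaY males and at 2194 and 2.40 FPKM in CS and CSaY females. In all, 44 genes with at least 10 FPKM in a head value differed at least 2-fold in opposite directions in the 2 strains, 12 higher in CS females and CSaY males and 32 the reverse. 7 of them belonged to 1 ortholog group of 26 tested genes, and all of these were higher in CS males and in CSaY females. LOC101898207 of that group stood at 257 and 99.0 FPKM in CS and CSaY males and at 71.9 and 216 FPKM in CS and CSaY females. LOC101896652 is a case of a listed 0 that may stand for an estimate that failed. It stood at 2779 and 2275 FPKM in CS and CSaY males and 4261 FPKM in CSaY females and was listed at 0 in CS females. Between CS and CSaY males, with 3 libraries each, 32 of all 44 genes had q below 0.05 in the authors' deposited table. Far fewer did between the 2 female libraries. The share over all genes is not given here, and the 44 were picked by their strain values. On the female side the differences in opposite directions rest on 1 library per strain.

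Genes called between the sexes in heads were found on each of the 5 large chromosomes. Chromosome 1 had 12.2% of its tested genes called higher in females and 1.31% higher in males, chromosome 2 8.90% and 1.85%, and chromosome 3, which carries the male determiner of CS, 11.6% and 2.28%. Chromosome 4 had 10.0% and 1.74% and chromosome 5 10.9% and 1.79%, against 10.7% and 1.82% over all tested genes. Of the 30 tested genes placed on the X chromosome, 1 was called higher in females and 0 higher in males. Of genes with several Drosophila melanogaster orthologs listed 15.6% were called higher in females and 2.56% higher in males, and of genes with 1 ortholog 9.33% and 1.5%. These shares are descriptions, and the differences between them were not tested.

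**Figure D5:**
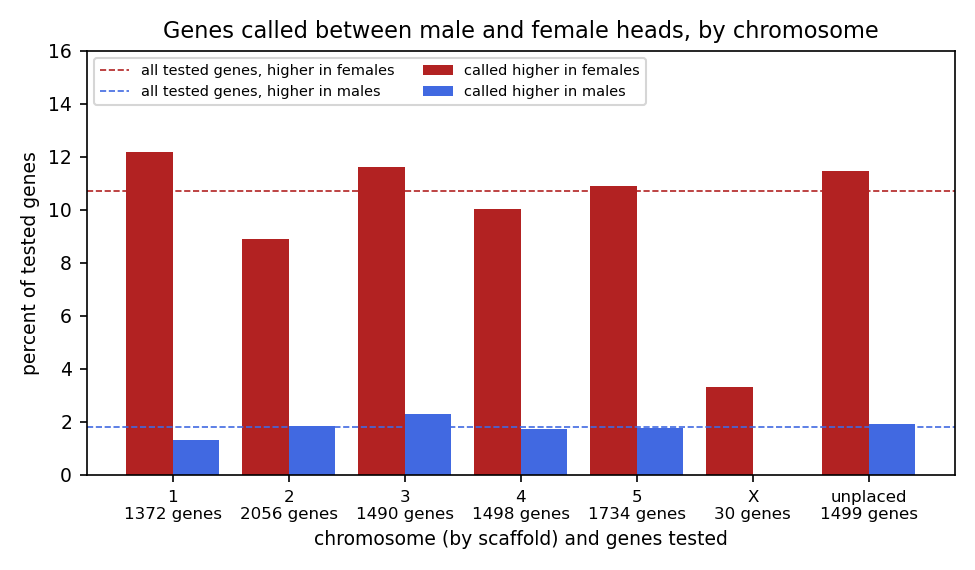
Percent of the tested genes of each chromosome (y axis) called higher in female heads (red bars) and in male heads (blue bars), with the number of tested genes under each chromosome. Dashed lines are the shares over all tested genes, 10.7% and 1.82%. The 5 large chromosomes lie between 8.90% and 12.2% for the red bars.

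The sex differences of heads were set beside those of gonads, which share no library with them. Of 8596 genes tested in both tissues the authors' deposited table called 46.4% higher in ovary and 27.8% higher in testis. Of the 889 genes called higher in female heads 41.2% were higher in ovary and 35.4% higher in testis. Of the 124 called higher in male heads 18.5% were higher in ovary and 62 of the 124 higher in testis. Read from the gonads, 9.18% of the genes higher in ovary and 13.2% of those higher in testis were called higher in female heads, against 10.3% of all genes tested in both tissues. Called higher in male heads were 0.577% of the genes higher in ovary and 2.60% of those higher in testis, against 1.44%. Genes at under 1 FPKM in both gonads made up 75 of 809 genes called higher in females with at least 10 FPKM in both female values (9.27%), and 31 of 146 called higher in males with at least 10 FPKM in both male values (21.2%). Over all tested genes with such levels in 1 sex the share was 5.94%. These differences in share were not tested.

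Markers of the tissues of a head could be checked only in part. Of 50 marker names in 9 lists (fat body, neurons, photoreceptors, glia, muscle, haemocytes, salivary gland and gut, ovary, testis) 5 matched a named gene, in 4 lists. The 2 fat body markers found, yp3 and diptericin, summed to 364 and 51.9 FPKM in CS and CSaY male heads and 1166 and 1329 FPKM in CS and CSaY female heads. These sums hide that the markers disagree in CSaY, where yp3 stood higher in females and diptericin higher in males, and that most of the CS female sum is diptericin, at 819 FPKM. The neuronal marker para-like, the gut and salivary gland marker lysozyme and the ovary marker bcd have their values above. No photoreceptor, glial, muscle, haemocyte or testis marker name was matched. As a further check, 145 genes with at least 100 FPKM in testis and under 1 FPKM in ovary had a median of 0.171 and 0.106 FPKM in CS and CSaY male heads and 0.129 and 0.0709 FPKM in the female heads. The part of tissue makeup in the differences above was not tested.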

How the data were processed

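Polyadenylated RNA of heads went into TruSeq libraries after TRIzol and RNeasy extraction, per the labels' protocols. Of the tools, Cufflinks 2.2.1, Bowtie2 2.1.0.0, TopHat2 2.0.8b and CASAVA 1.8.2 appear in the submitters' processing notes, with no role stated, and no source used here gives the genome build. The authors made the FPKM values before deposit, 1 for each group per the file headers, and depth is unknown. The q value of the head comparison was taken unchanged from the authors' deposited table, and a gene without one counts as not tested. The deposited FPKM columns that pool the strains are on another scale (male over female median factor 0.956 after adding 1 FPKM) and served as a check only. They hold the same libraries, so the check is not an independent one.

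Differences are log2(FPKM + 1), male minus female within a strain, centred on their median over genes with at least 10 FPKM in all 4 strain values. Calls need q below 0.05 and the same sign in both strains, and the size rule needs 2-fold in both strains. The centring and the 2-fold rule were tested on simulated data. The calls by q were not. Gene names were taken from the RefSeq gene table of GCF_030504385.1, with none of its coordinates: 12168 of 14631 gene IDs matched (83.2%), 26 more by protein accession, and 57 genes had a name (52 by symbol, 5 by synonym). Named are, in each direction, the called genes whose smaller strain difference is largest, 10 with a name and 3 others of any sort (at least 10 FPKM in both values of the higher sex), no more than 4 called genes per list, and the sex determination gene Sxl. The members and lists were chosen with earlier results of these data known. Several genes share 1 locus for 1732 genes, 101 of them called. For low values 1 read was worth 1.21 times as much FPKM in the CSaY as in the CS female library. All values were computed under Python 3.11.15 with pandas 2.3.3, numpy 2.4.6 and matplotlib 3.10.9.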

Additional observations from a re-analysis of the deposited data

Results flagged for a closer look

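Diptericin differed between the sexes in opposite directions in the 2 strains. The centred log2 difference, male minus female, was -1.82 in CS, where the female library stood higher, and 4.09 in CSaY, where the male value stood higher. Whether the sex difference itself differs between the strains was not tested, since each female value is 1 library. Between CS and CSaY males the authors' deposited table gives q = 0.00138. Its comparison of the 2 female libraries did not reach q below 0.05. No other gene with a name differed by at least 2-fold in opposite directions, and with 4 values and no single male libraries no search for outlying samples could be made.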

How the results depend on the processing

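Without centring, the 2-fold rule counted 241 genes for females and 131 for males, in place of 404 and 47. With at least 10 FPKM required in all 4 strain values, 669 genes were called higher in females in place of 1035, and the 2-fold counts were 268 and 30. CS alone gave 255 for males, and CSaY alone gave 833 for females and 148 for males. The columns that pool the strains gave 711 and 115. With q below 0.01 as the authors deposited it, 89 genes in place of 176 were called higher in males. A limit of 1.5-fold gave 691 and 158, and one of 4-fold 127 and 6. The cause of each shift was not tested, apart from the fewer genes or weaker limits that a setting itself brings. The counts stayed within 1.5 times of those reported under the other alternatives (another pseudocount, other centring sets or a trimmed mean, at least 1 FPKM, no genes of shared loci, q alone). Over 41 named genes and 9 alternatives each, 332 of 369 log2 differences kept their direction and their side of the threshold and 0 lost a call. No called gene changed direction, and 31 values of 16 genes that were not called did. With a pseudocount of 0.1 FPKM MdRdl stood at 0.725 and CYP12A1 at 0.29. Without centring MdRdl stood at 0.32, CCT-zeta at 0.32, MdaE7 at 0.15, CYP12A1 at 0.14, CYP12A2 at 0.20 and CYP6A40 at 0.0515. With centring over genes of at least 100 FPKM MdRdl stood at 0.0144 and CCT-zeta at 0.010. In CS alone diptericin stood at -1.82, CCT-zeta at 0.12, defensin-1 at -0.59, MdaE7 at 0.0915, CYP12A1 at 0.34, Gr2 at -0.0454, pdf at -0.48 and CYP6A40 at 0.0205. In CSaY alone MdRdl stood at 0.13, Spn2 at -0.57, SPN9 at -0.69, SPN13 at -0.0379 and HSP70 at -0.16. In the columns that pool the strains diptericin stood at -1.55, MdRdl at 0.21, SPN9 at -0.0108, CYP12A1 at 0.0872, CCT-delta at -0.15, CCT-eta at -0.0134, pdf at -0.0426 and HSP70 at -0.28. Of these, the values of diptericin and SPN13 also became called there. A further 6 became called without a change of direction, 5 of SPN13 and 1 of diptericin. No paired analysis was possible because the deposited values carry no replicate numbers, with 1 value per group. Leaving out single libraries was not run for the same reason. Each female value rests on 1 library, male values have no spread, and low levels cannot be given a counting interval because depth is unknown.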
